A study of Rattus norvegicus with 6 samples.

Results

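The genes described here carry out fatty acid oxidation and ketone body metabolism, together with several lipid supply genes that share their regulation. They were taken as a fixed list of 43 rat genes, and 42 of them were measured among 12112 tested genes. The list was chosen with earlier results of these data known. A gene was represented by its brightest probe among those well above background on all 3 arrays of a group. Only Abcd2, a peroxisomal transporter of very long chain fatty acids, was not tested, because its brighter probe was well above background on 2 vehicle arrays and 1 treated array. The 42 tested genes comprised 20 mitochondrial, 13 peroxisomal and 2 ketone body genes and 7 others.

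Renal cortex came from male Sprague-Dawley (Crl:CD(SD)) rats bought at 5 weeks of age and kept on a basal diet. One group of 3 received the corn oil vehicle and the other group of 3 received sulfone bis(p-chlorophenyl), a diaryl sulfone with a chlorine on each ring, at 250 mg/kg/day, both for 4 weeks. The submitters call the samples biological replicates, and the labels name no genetic change and no second agent in either group. Each RNA was labelled with Cy3 and hybridised alone to an Agilent rat expression array.

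Fatty acids enter the mitochondrion as carnitine esters and are shortened by a repeating cycle of dehydrogenation, hydration, dehydrogenation and thiolytic cleavage, the beta-oxidation spiral. Peroxisomes run a parallel spiral on very long and branched chains and on bile acid precursors, with hydrogen peroxide as a by-product. The proximal tubule of the renal cortex depends on fatty acids for energy, and many of these genes are targets of the fatty acid receptor PPAR-alpha in rodent liver and kidney. Ketone bodies are made from acetyl-CoA mainly in liver, and kidney can burn them.

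Many of the oxidation genes had higher signal in treated cortex, by small amounts. Of the 42 tested genes 32 had a higher and 10 a lower mean in the treated arrays, against 47.5% higher and 52.5% lower among all tested genes. By the limma test, 15 were higher and 0 lower at an unadjusted p under 0.05. Over all tested genes 10.1% were higher and 11.3% lower by that measure. None of the 42 passed Benjamini-Hochberg adjustment over all 40643 tested probes, of which 3 passed (0.00738%), or 2 of 12112 genes (0.0165%). The groups did not overlap for 19 genes in the higher direction (13.9% of all genes) and for 1, Acsl1, in the lower direction (16.8% of all genes). The adjusted p-values of the 15 ran from 0.0635 to 0.212. In bulk tissue, fewer cells of a type and less RNA per cell cannot be told apart. The 15 comprised 4 genes of carnitine transfer (Cpt1b, Cpt2, Slc25a20, Crat), 3 of the mitochondrial spiral (Acadm, Acads, Decr1), 5 peroxisomal genes (Acox2, Acaa1a, Hsd17b4, Pex11a, Cat), the peroxisomal thioesterase Acot8, and the lipid droplet and uptake genes Plin2 and Cd36. All values below are log2 signal relative to the 75th percentile of the array, and a difference is the treated mean minus the vehicle mean on that scale, so a difference of 1 is a 2-fold change.

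**Figure D1:**
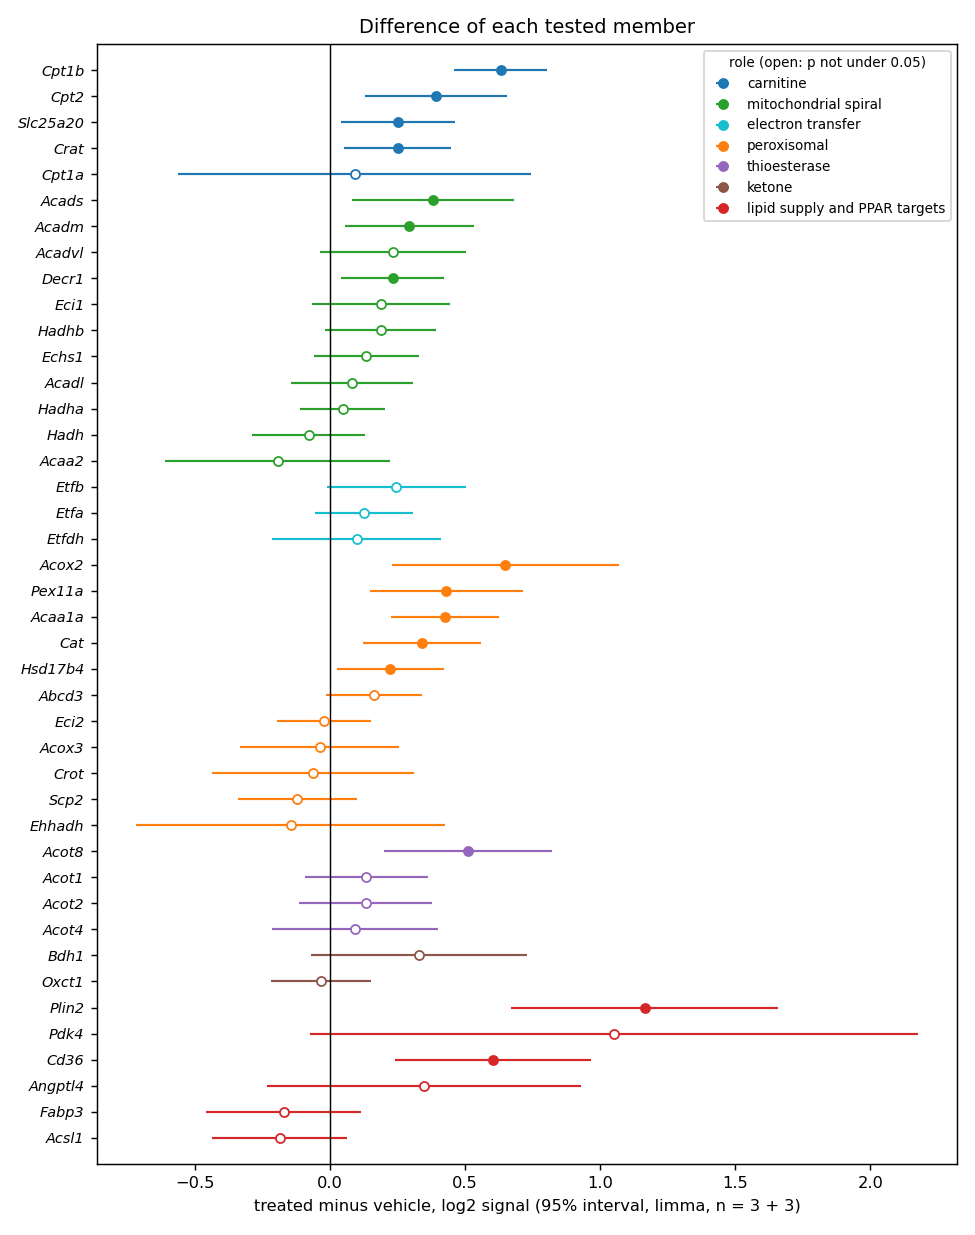
Difference between the treated and vehicle means of the 42 tested genes (x axis, log2 signal), with 95% intervals from limma (n = 3 + 3) and genes grouped by role on the y axis. Filled points mark the 15 genes with an unadjusted p under 0.05, all of them higher, and differences run from -0.19 for Acaa2 to 1.16 for Plin2.

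The arrays were of similar brightness. The 75th percentile of processed signal ran from 910.3 to 1101 and 66.1% to 68.2% of 61537 non-control probes were well above background, with none saturated. Vehicle 1 to 3 and treated 1 shared slide 1 and scan 1, whereas treated 2 and 3 lay on slide 2 and scan 2. The part of the slide in a group difference can therefore be gauged only through treated 1. Because treated 1 is 1 rat, slide and variation between animals cannot be told apart in it. The difference of treated 1 from the vehicle mean is called the difference on slide 1. Treated 1 was the lowest of the 3 treated arrays in 28 of the 42 genes and the highest in 6. Over all 12112 tested genes it was the lowest in 5271 and the highest in 4298. The median difference over the 42 genes was 0.19, and on slide 1 it was 0.09. Over all tested genes these medians were -0.01 and -0.03.

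Upstream sequence of several of the 15 genes is printed here, since many of them are known PPAR-alpha targets and that receptor binds repeats of AGGTCA with 1 base between. Of the 43 genes, 39 had an entry in the RefSeq promoter table (build GRCr8), from which the 250 bases before the gene start were searched on both strands. Cpt1b, Decr1, Acaa2 and Acadl are named only. Plin2 and Acaa1a have the lowest unadjusted p among the genes with an entry, and both windows lack AGGTCA on either strand.

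The Plin2 window lies at chr5:106229019-106229268, minus strand, and that of Acaa1a at chr8:127957231-127957480, plus strand.
Plin2: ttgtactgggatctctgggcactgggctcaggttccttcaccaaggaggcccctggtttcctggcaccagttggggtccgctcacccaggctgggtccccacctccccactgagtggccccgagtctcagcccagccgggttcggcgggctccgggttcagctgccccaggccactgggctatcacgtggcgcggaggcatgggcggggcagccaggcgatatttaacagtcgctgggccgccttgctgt
Acaa1a: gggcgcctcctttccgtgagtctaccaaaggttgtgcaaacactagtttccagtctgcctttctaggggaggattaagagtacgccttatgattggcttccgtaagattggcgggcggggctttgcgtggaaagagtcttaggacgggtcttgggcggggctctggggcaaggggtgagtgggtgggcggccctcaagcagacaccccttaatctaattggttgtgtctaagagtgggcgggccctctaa

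Among the 15 genes, 13 had an entry and 3 of these held AGGTCA, namely Acot8, Cat and Hsd17b4. The 60 bases around each motif are shown with AGGTCA in capitals, for Acot8 at chr3:173962189-173962248, minus strand, for Cat at chr3:110329663-110329722, minus strand, and for Hsd17b4 at chr18:45515344-45515403, plus strand.
Acot8: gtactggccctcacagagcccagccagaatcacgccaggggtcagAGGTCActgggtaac
Cat: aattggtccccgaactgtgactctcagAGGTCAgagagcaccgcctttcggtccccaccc
Hsd17b4: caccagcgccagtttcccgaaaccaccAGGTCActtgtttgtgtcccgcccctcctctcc

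AGGTCA was present in 8 of the 39 windows (20.5%) and in 13.7% of 27457 promoters of the same length. Among tested genes outside the 15, 4 of 25 windows held it. The repeat AGGTCANAGGTCA was in 0 of 39 windows and in 0.0546% of all promoters. With 1 free base in each copy of the motif, as AGGNCANAGGNCA, it was again in 0 of 39 windows, against 0.353% of all promoters. With the first base also free, a change made after the windows were seen, the pattern NGGNCANAGGNCA was in the Acot8 window alone (2.56% of the 39, against 0.681%). These counts describe letters in a short window and no binding was measured.

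The carnitine shuttle gave the smallest p of the list. Cpt1b, the muscle-type form of the outer membrane enzyme that makes acylcarnitine and sets the rate of entry, gave 1.86, 1.75 and 1.85 on the vehicle arrays against 2.44, 2.48 and 2.43 on the treated arrays, in the order of replicates 1, 2 and 3 here and below. Every treated value lay above every vehicle value, and the arrays of a group lay close together. The means were 1.82 ± 0.06 (SD, n = 3) under vehicle, whereas treated cortex had 2.45 ± 0.03 (SD, n = 3). The difference was 0.63 (SE 0.07, 95% interval 0.46 to 0.80), a fold of 1.55, with a limma adjusted p of 0.0635. On slide 1 it was 0.62. Its adjusted p was under the 0.05 threshold with normexp background correction (0.032, difference 0.60), with a trended robust variance (0.025) and without treated 1 (0.016, difference 0.64).

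Cpt1a, the liver-type form of the same enzyme and a textbook PPAR-alpha target, differed little between the group means. Its signals were 3.27, 2.68 and 3.35 on the vehicle arrays against 2.71, 3.39 and 3.46 on the treated arrays. Vehicle 2 and treated 1 were the low arrays, the other 4 lay between 3.27 and 3.46, and the groups overlapped. The difference was 0.09 (SE 0.27, 95% interval -0.56 to 0.74), and it was -0.39 on slide 1 and 0.33 without treated 1, so its sign depended on which arrays were used.

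Cpt2, the inner membrane enzyme that turns acylcarnitine back into acyl-CoA, had signals of 3.66, 3.58 and 3.64 on the vehicle arrays against 3.82, 4.07 and 4.17 on the treated arrays. All treated arrays exceeded all vehicle arrays, treated 1 by the smallest margin. The difference was 0.39 (SE 0.11, 95% interval 0.13 to 0.66) with an adjusted p of 0.154, and 0.19 on slide 1. Slc25a20, the carrier that exchanges acylcarnitine for carnitine across the inner membrane, had 3.27, 3.26 and 3.27 on the vehicle arrays against 3.37, 3.59 and 3.60 on the treated arrays. The vehicle arrays were nearly equal and treated 1 stood between them and the other treated arrays. Its difference was 0.25 (SE 0.09), and 0.11 on slide 1. Crat, which attaches short acyl groups to carnitine in mitochondria and peroxisomes, had 6.26, 6.41 and 6.39 on the vehicle arrays against 6.55, 6.59 and 6.68 on the treated arrays. Its groups were apart, with a difference of 0.25 (SE 0.08) and of 0.19 on slide 1.

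**Figure D2:**
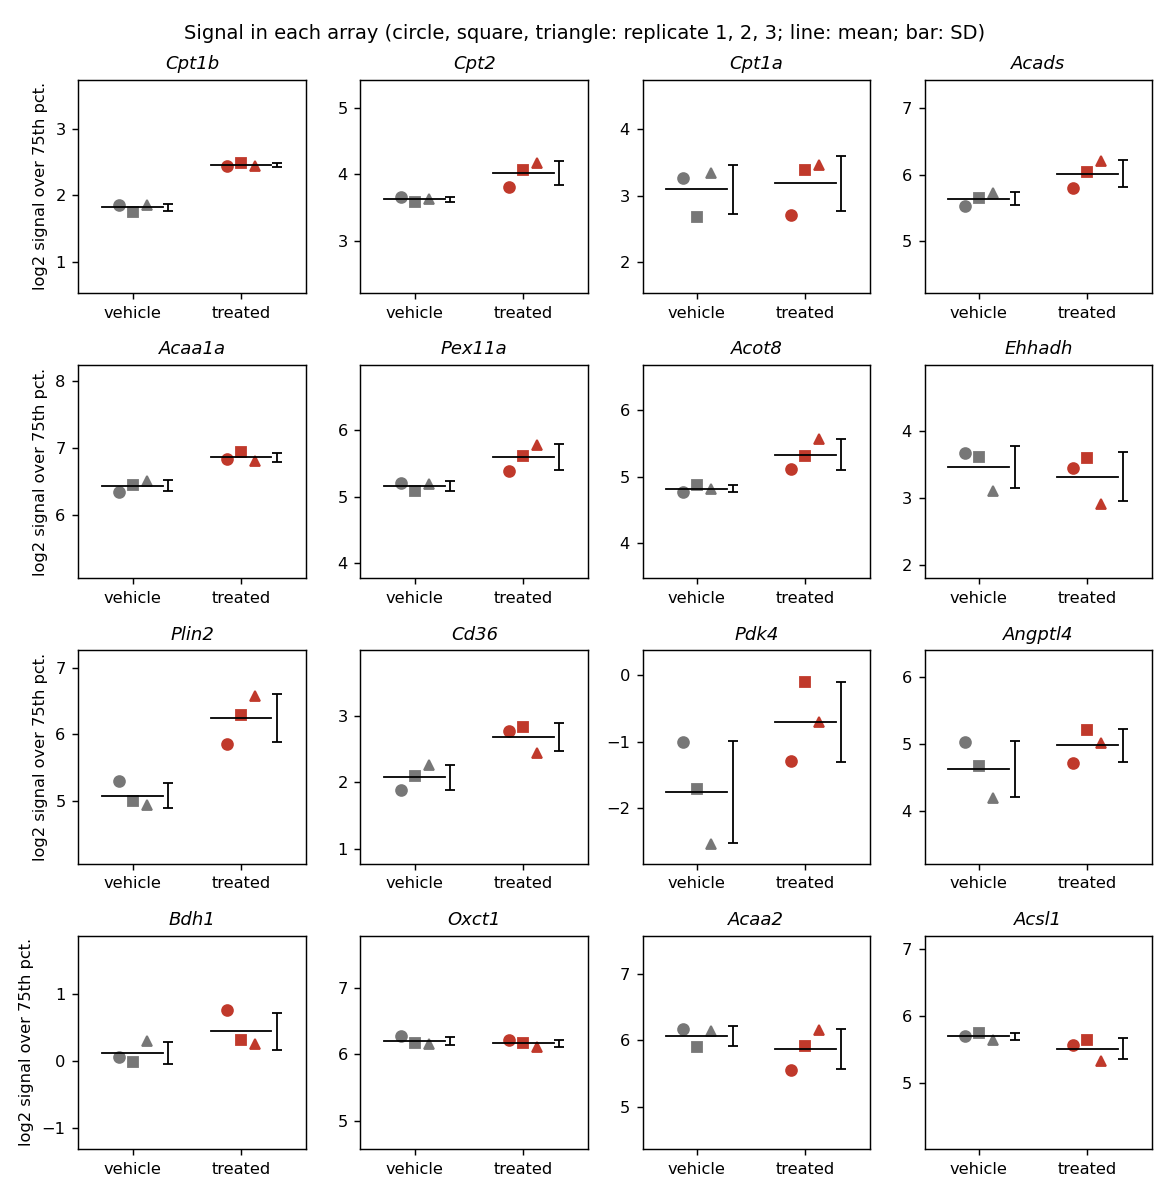
Log2 signal over the array's 75th percentile (y axis) of 16 genes in each vehicle and treated array, with the replicate shown by the symbol, the group mean by a line and the SD (n = 3) by a bar. Groups are apart for Cpt1b, Cpt2, Acads, Acaa1a, Pex11a, Acot8, Plin2, Cd36 and, in the lower direction, Acsl1, and they overlap for the other 7 genes.

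Of the 11 genes of the mitochondrial spiral, 9 had a higher and 2 a lower treated mean. At an unadjusted p under 0.05, 3 were higher. The shares over all tested genes were 47.5% with a higher mean and 10.1% higher by that p. Acads, the short-chain acyl-CoA dehydrogenase, had signals of 5.53, 5.65 and 5.72 on the vehicle arrays against 5.80, 6.04 and 6.20 on the treated arrays. Treated 1 exceeded the highest vehicle array by less than the vehicle arrays differed from each other, and treated 2 and 3 were further up. The difference was 0.38 (SE 0.12, 95% interval 0.08 to 0.68), and 0.17 on slide 1. Acadm, the medium-chain dehydrogenase, had 6.29, 6.40 and 6.47 on the vehicle arrays against 6.55, 6.80 and 6.68 on the treated arrays. Its groups did not overlap and treated 2 was the highest array. Its difference was 0.29 (SE 0.10), and 0.16 on slide 1. Decr1, the reductase that prepares unsaturated fatty acids for the spiral, had 5.71, 5.86 and 5.81 on the vehicle arrays against 6.005, 6.09 and 5.98 on the treated arrays. The treated arrays were close together above the vehicle arrays, with a difference of 0.23 (SE 0.08) and of 0.21 on slide 1. The adjusted p-values were 0.186, 0.192 and 0.194 for Acads, Acadm and Decr1.

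The mitochondrial trifunctional protein, which carries out the last 3 steps of the spiral on long chains, is encoded by Hadha and Hadhb. Hadha signals were 3.41, 3.39 and 3.43 on the vehicle arrays against 3.47, 3.45 and 3.45 on the treated arrays. The groups were apart, but by less than the SE, with a difference of 0.05 (SE 0.06). The 2 dimmer Hadha probes had differences of -0.07 and 0.19, on either side of 0. Hadhb signals were 2.70, 2.65 and 2.62 on the vehicle arrays against 2.72, 2.91 and 2.90 on the treated arrays. Treated 1 was just above vehicle 1, and the difference of 0.19 (SE 0.08) was 0.06 on slide 1, with an unadjusted p of 0.068.

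Of the remaining genes of the spiral, Acadvl, the very long chain dehydrogenase, had a difference of 0.23 (SE 0.11), Eci1, an enoyl-CoA isomerase, of 0.19 (SE 0.10), and Echs1, the short-chain hydratase, of 0.13 (SE 0.08). Acadl, the long-chain dehydrogenase, had 0.08 (SE 0.09) and Hadh, a hydroxyacyl-CoA dehydrogenase, had -0.08 (SE 0.09). None of these 5 reached an unadjusted p of 0.05, and in each of them treated 1 was within or below the vehicle range. Acaa2, the mitochondrial thiolase of the last step, had signals of 6.16, 5.90 and 6.13 on the vehicle arrays against 5.55, 5.91 and 6.15 on the treated arrays. It overlapped between groups, with a difference of -0.19 (SE 0.17). On slide 1 the difference was -0.52, with an unadjusted limma p of 0.024, and it is set out here because of that value.

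Electrons from the dehydrogenases pass to the respiratory chain through the flavoprotein subunits Etfa and Etfb and their oxidoreductase Etfdh. Etfa signals were 3.26, 3.38 and 3.42 on the vehicle arrays against 3.48, 3.48 and 3.48 on the treated arrays. The treated arrays were equal to the second decimal and lay above vehicle 3, the highest vehicle array, with a difference of 0.13 (SE 0.07). Etfb had a difference of 0.24 (SE 0.10) and Etfdh of 0.10 (SE 0.13), both with overlapping groups. None of the 3 had an unadjusted p under 0.05.

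Among 13 tested peroxisomal genes, including the thioesterases Acot4 and Acot8, 6 were higher at an unadjusted p under 0.05. In the higher direction 7 were apart. The shares over all tested genes were 10.1% by that p and 13.9% apart. Acox2, the oxidase for branched chains and bile acid precursors, had signals of -3.46, -3.41 and -3.04 on the vehicle arrays against -2.40, -2.90 and -2.67 on the treated arrays. Treated 1 was the highest array and the groups were apart. Its difference of 0.65 (SE 0.17, 95% interval 0.23 to 1.07) was larger on slide 1, at 0.91. Acaa1a, the peroxisomal thiolase, had 6.35, 6.45 and 6.51 on the vehicle arrays against 6.84, 6.94 and 6.80 on the treated arrays. All treated arrays were above all vehicle arrays by more than the spread within either group. The difference was 0.43 (SE 0.08, 95% interval 0.23 to 0.63), or 0.40 on slide 1, with an adjusted p of 0.108. Its close paralog Acaa1b, which is not among the 43, had a difference of 0.64 (SE 0.17), and cross-binding of their probes was not tested.

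Hsd17b4, the bifunctional enzyme for the middle steps on branched chains, had signals of 6.34, 6.39 and 6.20 on the vehicle arrays against 6.48, 6.54 and 6.57 on the treated arrays. The groups were apart, with a difference of 0.22 (SE 0.08) and of 0.17 on slide 1. Pex11a, which promotes peroxisome division and is a classic target of peroxisome proliferators, had 5.21, 5.08 and 5.19 on the vehicle arrays against 5.39, 5.61 and 5.78 on the treated arrays. The treated arrays were above the vehicle arrays, treated 3 the most. Its difference was 0.43 (SE 0.12, 95% interval 0.15 to 0.71), and 0.23 on slide 1. Cat encodes catalase, which removes the hydrogen peroxide made by the oxidases, and had 3.04, 3.04 and 3.10 on the vehicle arrays against 3.25, 3.46 and 3.49 on the treated arrays. The vehicle arrays were nearly level and all treated arrays exceeded them. Its difference was 0.34 (SE 0.09, 95% interval 0.12 to 0.56), and 0.19 on slide 1.

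Acot8, a thioesterase that ends peroxisomal oxidation by releasing chain-shortened acids, had signals of 4.77, 4.87 and 4.82 on the vehicle arrays against 5.12, 5.31 and 5.57 on the treated arrays. Its groups were apart, with a difference of 0.51 (SE 0.13, 95% interval 0.20 to 0.82) and of 0.30 on slide 1. Abcd3, the transporter that brings long and branched acyl-CoA into the peroxisome, had 6.19, 6.18 and 6.21 on the vehicle arrays against 6.27, 6.42 and 6.38 on the treated arrays. Treated 1 was only just above the vehicle arrays, and the difference of 0.16 (SE 0.07) had an unadjusted p of 0.066.

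Ehhadh, the other peroxisomal bifunctional enzyme and a strongly inducible PPAR-alpha target in rodent liver, had a slightly lower treated mean. Its signals were 3.67, 3.62 and 3.11 on the vehicle arrays against 3.46, 3.60 and 2.91 on the treated arrays. Replicate 3 was the low array in both groups, and the groups overlapped over nearly their whole range. The difference was -0.15 (SE 0.23, 95% interval -0.72 to 0.43) and was -0.01 on slide 1. Another 5 peroxisomal genes overlapped between groups, with differences from -0.12 for Scp2, a thiolase and sterol carrier, to 0.09 for Acot4, a thioesterase. Between these lay the octanoyl transferase Crot (-0.06), the branched-chain oxidase Acox3 (-0.04) and the isomerase Eci2 (-0.02). These values are from the brightest probes. The dimmer Scp2 probe had all treated arrays below all vehicle arrays, with a difference of -0.20 (SE 0.08) and an unadjusted limma p of 0.054.

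The thioesterases Acot1, cytosolic, and Acot2, mitochondrial, which cleave acyl-CoA to free acid, had differences of 0.13 (SE 0.09) and 0.13 (SE 0.10). Acot1, Acot2 and Acot4 are close relatives, and whether their probes bind each other's transcripts was not tested. Fabp3, a fatty acid binding protein, had a difference of -0.17 (SE 0.12).

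Ketone body genes showed no difference past an unadjusted p of 0.05. Bdh1, which interconverts acetoacetate and beta-hydroxybutyrate, had signals of 0.06, -0.02 and 0.30 on the vehicle arrays against 0.76, 0.31 and 0.26 on the treated arrays. Treated 1 stood above the other 5 arrays, and the rest overlapped. Its difference was 0.33 (SE 0.16, 95% interval -0.07 to 0.73), and 0.64 on slide 1 and 0.17 without treated 1. Oxct1, the transferase that activates acetoacetate for use as fuel, had 6.27, 6.17 and 6.15 on the vehicle arrays against 6.22, 6.16 and 6.10 on the treated arrays. The groups overlapped. Its difference was -0.03 (SE 0.08, 95% interval -0.22 to 0.15), and 1 of the 3 dimmer probes was of opposite sign (0.04).

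Lipid supply genes held the largest differences of the list. Plin2, which coats cytosolic lipid droplets, had signals of 5.30, 4.99 and 4.95 on the vehicle arrays against 5.86, 6.29 and 6.58 on the treated arrays. The lowest treated array exceeded the highest vehicle array by more than the vehicle arrays differed from each other, and treated 3 was the highest. The means were 5.08 ± 0.19 (SD, n = 3) under vehicle, whereas treated cortex had 6.24 ± 0.36 (SD, n = 3). The difference was 1.16 (SE 0.20, 95% interval 0.67 to 1.66), a fold of 2.24 with an adjusted p of 0.0957, and it was 0.78 on slide 1. Cd36, a fatty acid uptake receptor, had 1.89, 2.09 and 2.26 on the vehicle arrays against 2.77, 2.83 and 2.44 on the treated arrays. Treated 3 was the lowest treated array and still above vehicle 3, the highest vehicle array. Its difference was 0.60 (SE 0.15, 95% interval 0.24 to 0.96), and 0.69 on slide 1.

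Pdk4, the kinase that shuts off pyruvate oxidation when fat is burned, had signals of -1.01, -1.72 and -2.54 on the vehicle arrays against -1.30, -0.11 and -0.71 on the treated arrays. The vehicle arrays spread widely, and treated 1 lay below vehicle 1. The difference of 1.05 (SE 0.46, 95% interval -0.07 to 2.18) was nearly as large as that of Plin2 but had an unadjusted p of 0.062, and it was 0.46 on slide 1. Without vehicle 3 it was 0.66, without vehicle 1 it was 1.42, with an unadjusted limma p of 0.019, and without treated 1 it was 1.35, with a p of 0.041. Angptl4, a secreted inhibitor of lipoprotein lipase, had 5.04, 4.67 and 4.20 on the vehicle arrays against 4.72, 5.21 and 5.01 on the treated arrays. Its groups overlapped, with a difference of 0.35 (SE 0.24, 95% interval -0.23 to 0.93), and 0.09 on slide 1. Without vehicle 1 it was 0.55, with an unadjusted limma p of 0.047, and without vehicle 3 it was 0.13. In both genes vehicle 1 was the highest vehicle array and vehicle 3 the lowest.

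Acsl1 activates long-chain fatty acids to acyl-CoA. It was the only gene of the 42 with all treated arrays below all vehicle arrays by its brightest probe. Its signals were 5.70, 5.75 and 5.65 on the vehicle arrays against 5.56, 5.64 and 5.33 on the treated arrays. Treated 2 was only just below vehicle 3, and the difference of -0.19 (SE 0.10, 95% interval -0.44 to 0.06) had an unadjusted p of 0.12. The 3 dimmer Acsl1 probes had differences of 0.0046, -0.14 and 0.09, so its direction rested on the probe.

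Grouped by compartment, the 20 mitochondrial genes had a median difference of 0.19, with 7 higher at an unadjusted p under 0.05, 10 apart in the higher direction, and none apart or past p in the lower direction. The 13 peroxisomal genes had a median of 0.16, with 6 higher by p and 7 apart. The 2 ketone genes had a median of 0.15 and the 7 others, Acot1 and the lipid supply genes, had 0.35, with 2 higher by p. The shares over all tested genes were 10.1% higher and 11.3% lower by p, and 13.9% and 16.8% apart in those directions. Relative to each gene's vehicle mean, the mitochondrial median was 0.10, 0.26 and 0.25 in treated 1, 2 and 3, and the vehicle arrays lay within -0.005 to 0.025. The peroxisomal median was 0.08, 0.23 and 0.18 in treated 1, 2 and 3, with vehicle arrays from -0.03 to 0.01. In both compartments every treated array was thus above every vehicle array, and treated 1 stood nearest to the vehicle. The ketone pair ran the other way, with 0.33 in treated 1 and 0.08 and 0.03 in treated 2 and 3, which was Bdh1. These medians describe genes of the same arrays, and no difference between compartments was tested.

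**Figure D3:**
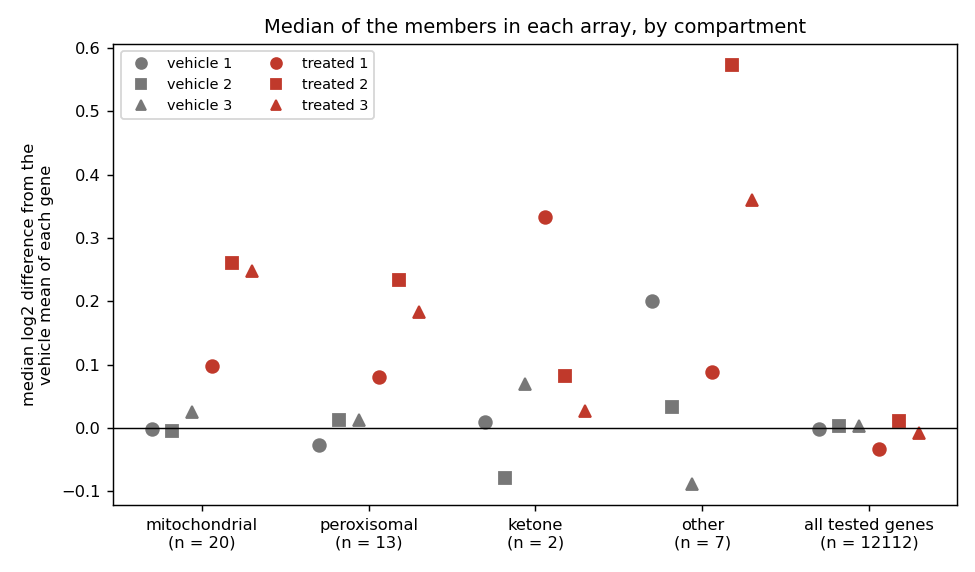
Median log2 difference from each gene's vehicle mean (y axis) in every array, for mitochondrial (20), peroxisomal (13), ketone (2) and other (7) genes and for all 12112 tested genes (x axis). In the mitochondrial and peroxisomal genes treated 2 and 3 lie near 0.2 and treated 1 near 0.1, with vehicle arrays and all tested genes near 0.

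With slide as a fixed block, which takes the difference from slide 1, 6 genes were higher at an unadjusted p under 0.05 (6.4% of all genes) and 1 was lower (7.45%). The 6 were Acaa1a, Acox2, Bdh1, Cd36, Cpt1b and Plin2, and the lower gene was Acaa2. The 15 genes named first were chosen with treated 1 among the arrays, and treated 1 was above the vehicle range in all 15. Their higher sign on slide 1 is therefore no separate check. Their differences on slide 1 were 0.42 to 1.40 times those over all arrays. Treated 1 was above the vehicle range in 21 of the 42 genes and below it in 6. Over all genes these shares were 27.5% and 38.6%. Of the 15, 9 had a p under 0.05 whichever array was left out, and Acaa1a, Acox2, Cd36, Cpt1b and Plin2 did so under every alternative tried. Without treated 1, 10 genes passed the adjusted test (Acaa1a, Acads, Acadvl, Acot8, Cat, Cpt1b, Cpt2, Pex11a, Plin2, Slc25a20), with 1469 probes (3.61%) called higher and 2838 (6.98%) lower over the whole array. In that setting slide and treatment cannot be told apart.

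**Figure D4:**
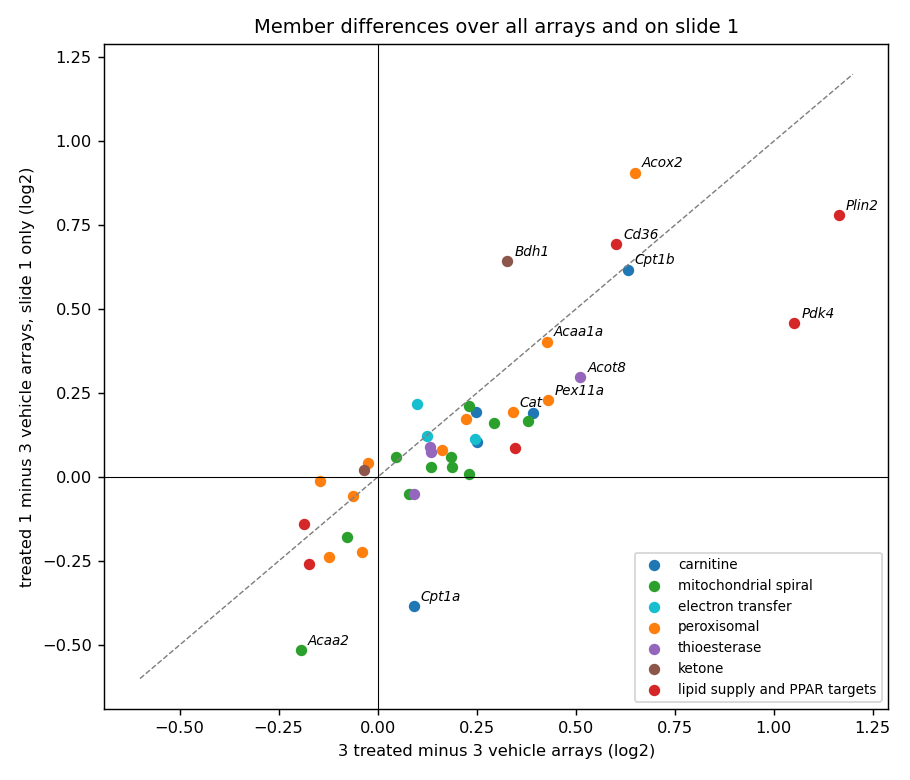
Difference of each of the 42 genes over all arrays (x axis, log2, 3 treated minus 3 vehicle) against its difference on slide 1 (y axis, log2, treated 1 minus the vehicle mean), with the dashed line at equality and colour for role. Among the labelled genes Acox2, Bdh1 and Cd36 lie above the line, Cpt1b on it, and Plin2 and Pdk4 well below it, while Cpt1a and Acaa2 fall below 0 on slide 1.

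Of the 42 genes, 17 had more than 1 tested probe. Among their 27 other probes, 23 gave the same sign as the brightest one, and the exceptions belonged to Acsl1, Hadha and Oxct1. Of the 15 genes, 7 had further probes, and all 11 of these were higher, 9 with an unadjusted p under 0.05. The 15 were chosen by their brightest probe, and the further probes read the same genes in the same RNA. Their agreement is therefore no separate check.

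**Figure D5:**
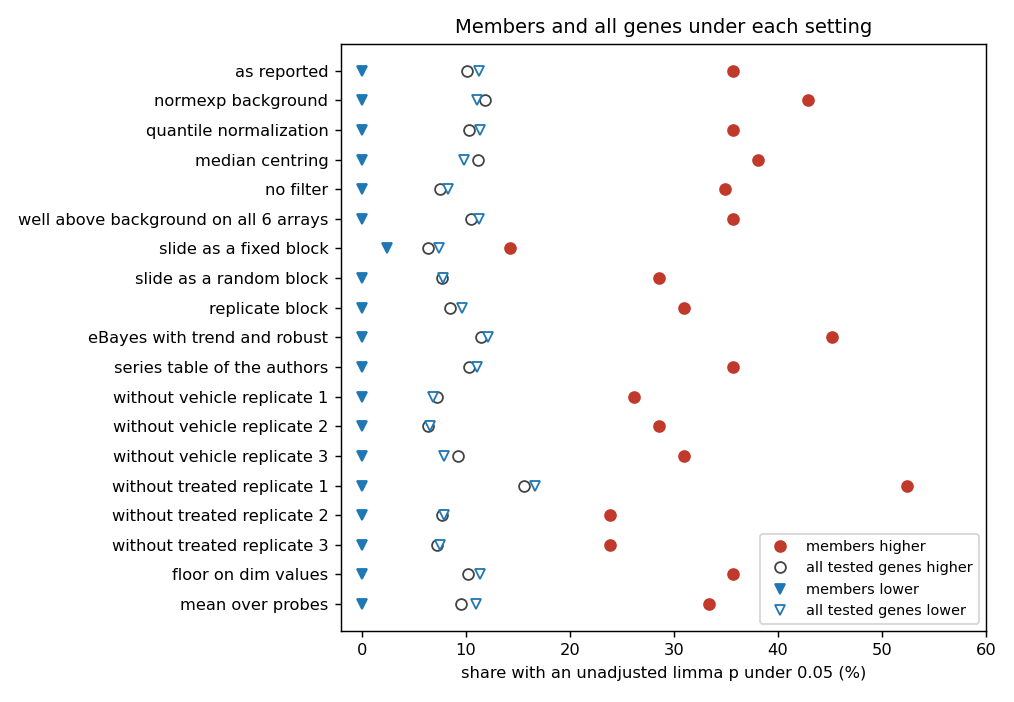
Share of the listed genes and of all tested genes (x axis, percent) with an unadjusted limma p under 0.05, higher (circles) or lower (triangles), under the reported setting and each alternative (y axis). The listed genes run from 6 to 22 higher of 42 and lie to the right of all tested genes in every setting, nearest with slide as a fixed block.

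Other genes of the same pathways were taken from lists of 121 genes. The number tested is given with each list below. Of those tested, none passed the adjusted test, and 24 were higher and 7 lower at an unadjusted p under 0.05. Over all tested genes 10.1% were higher and 11.3% lower by that measure. The share of higher genes in the lists was above the first value, and that of lower genes below the second. The lists were chosen with earlier results of these data known, so this comparison is no independent test. The median difference of the lists was 0.13, or 0.02 on slide 1. Of 14 tested regulators 5 were higher and 0 lower by that p. Ppara, the gene of PPAR-alpha itself, had signals of 0.16, 0.11 and 0.03 on the vehicle arrays against 1.08, 1.24 and 1.08 on the treated arrays. All treated arrays were about 1 log2 unit above all vehicle arrays, treated 1 included. The difference was 1.03 (SE 0.08, 95% interval 0.83 to 1.24) with an adjusted p of 0.0574, and 0.98 on slide 1. Ppargc1b, a coactivator of mitochondrial genes, had a difference of 0.65 (SE 0.11), and Creb3l3, a transcription factor that works with PPAR-alpha in liver, of 0.31 (SE 0.08).

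Among 24 tested further oxidation genes, 5 were higher and 0 lower at an unadjusted p under 0.05. Hacl1, the peroxisomal lyase of alpha-oxidation, had signals of 3.80, 4.03 and 4.09 on the vehicle arrays against 5.18, 4.98 and 4.85 on the treated arrays. The groups were about 1 log2 unit apart, with a difference of 1.03 (SE 0.13), and 1.21 on slide 1. Acad11, an acyl-CoA dehydrogenase, had a difference of 0.62 (SE 0.13). Of 7 tested further ketone genes, 1 was higher and 2 were lower. The lower ones were Slc16a6, a ketone body exporter described in zebrafish (-0.38 (SE 0.13)), and Aacs, which directs acetoacetate to lipid synthesis (-0.50 (SE 0.20), with overlapping groups).

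In carnitine supply and malonyl-CoA, 3 of 9 were higher and 1 lower by unadjusted p. Those with the lowest p were Acacb (0.60 (SE 0.14)), whose product malonyl-CoA inhibits the outer membrane transferase, Cpt1c (0.57 (SE 0.10)), a brain-type relative of that transferase, and the carnitine transporter Slc22a5 (-0.26 (SE 0.08)). Of 24 uptake, storage and activation genes 7 were higher and 0 lower, led by Pnpla2, the lipase that starts triglyceride breakdown (0.69 (SE 0.10)). Lpl, lipoprotein lipase, had 0.42 (SE 0.12) and Dgat2, which makes triglyceride, had 0.90 (SE 0.27). Omega oxidation had 1 of 8 higher, Cyp4f1 (0.28 (SE 0.09)), and its differences ran from -0.11 to 1.55. Peroxisome assembly had 2 of 16 higher and 3 lower, for example Pex19 (0.37 (SE 0.08)), Pex16 (0.56 (SE 0.18)) and Pex2 (-0.29 (SE 0.10)). For lists this short, the counts of omega oxidation and peroxisome assembly lie near the shares over all tested genes, 10.1% higher and 11.3% lower. The shares of higher genes in the carnitine and uptake lists were above 10.1%. Of 5 pyruvate dehydrogenase kinases and phosphatases other than Pdk4, 1 was lower, the phosphatase Pdp2 (-0.46 (SE 0.07)).

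Markers of cell types differed between the same arrays. Markers of the labelled tissue were present, with Lrp2, the apical receptor that marks the proximal tubule, at 6.46 to 6.55 on vehicle and 6.06 to 6.35 on treated arrays, and the 17 proximal and 10 distal nephron markers were all tested. Of those 17 proximal tubule markers 4 were higher and 1, Lrp2 (-0.32, SE 0.10), lower by unadjusted p. Their median difference was 0.14, or -0.11 on slide 1, and their summed linear signal, in multiples of each array's 75th percentile, was 3169 to 3288 in vehicle and 2941 to 3689 in treated arrays. The 7 markers of the straight segment S3 had a median difference of 1.44, or 1.90 on slide 1, with treated 1 above the vehicle range for 7 of 7. Their sum was 16.9 to 117 in vehicle and 113 to 250 in treated arrays. Of these 7, 4 were higher and 0 lower by p, and 4 were apart in the higher direction. Slc7a13 and Slco1a1 overlapped between groups. In both, and in Slc22a7, Aadat and Slc5a1, vehicle 1 was the lowest array. Relative to each gene's vehicle mean, the S3 median was -1.13, 0.03 and 0.99 in vehicle 1, 2 and 3. In treated 1, 2 and 3 it was 1.90, 1.21 and 1.43. Slc22a13 had a difference of -0.14, with treated 2 and 3 below all vehicle arrays. Of the 14 liver markers 2 were higher by p, with a median of 0.58, or -0.10 on slide 1, and sums of 29.8 to 58.8 and 45.1 to 105. Albumin (Alb) had 3.49, 2.43 and -0.28 in vehicle and 1.26, 2.12 and 3.92 in treated 1, 2 and 3. The part of these shifts in the differences of the oxidation genes was not tested.

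Of 5 tested adipocyte markers 2, Cidec (1.86) and Ucp1 (0.58), were higher by p. The 5 had a median of 0.58, or 0.79 on slide 1, and sums of 1.3 to 1.85 and 2.23 to 2.66. Cidec had -2.83, -1.42 and -0.36 in vehicle and 0.66, -0.08 and 0.40 in treated 1, 2 and 3. Ucp1 was dim, at -5.16 to -4.66 on vehicle and -4.51 to -4.23 on treated arrays. The dimmest probes well above background lay at -5.78 to -5.36. Fabp4 (0.76) and Cfd (0.46) had higher treated means without a p under 0.05, and Adipoq had a difference of -0.08. Lep was well above background on 0 arrays. Their part in the differences of Plin2, Cd36 and the other lipid genes was not tested. Of 6 muscle markers 0 were higher and 1 lower, with sums of 0.87 to 0.89 and 0.64 to 0.85. The lower one by p was Acta1 (-1.42). Ckm, well above background on 5 arrays, had a difference of -0.46, and Myl2 was well above background on 0 arrays. Mb, Tnnt2 and Tnnt3 were well above background on all 6 arrays, with differences of -0.22, -0.30 and -0.19. Myh7, also on all 6 arrays, went the other way, with a difference of 0.21. The part of muscle RNA in the Cpt1b difference was not tested. Macrophage markers had 1 of 8 higher and 3 lower, with sums of 15.4 to 23.5 and 17.1 to 18.6. Endothelial markers had 1 of 7 higher, with sums of 31.8 to 34.4 and 30.0 to 33.9. Distal nephron markers had 0 of 10 higher and 1 lower, with sums of 473 to 602 and 584 to 631. Over all tested genes 10.1% were higher and 11.3% lower by unadjusted p.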

How the data were processed

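Renal cortex RNA of 6 rats, 3 vehicle and 3 treated as the labels group them, was measured on 1-colour arrays. Per the file headers, the authors extracted spot intensity values with Feature Extraction 10.7.1.1, which writes a background-subtracted processed signal; the submitters' processing notes name version 10.7. The series table deposited by the authors also holds intensity values and followed the processed signal over the 75th percentile (log2 r of 1 after rounding, with column medians of 0.1099, 0.1081 and 0.1094 for vehicle and 0.1093, 0.1053 and 0.1047 for treated 1, 2 and 3). Every column belonged to a known sample.

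Each array's processed signal was divided by its own 75th percentile and taken to log2, over 61537 non-control probes. The 11 probes with an outlier flag were left out, and probes well above background on all 3 arrays of a group were tested. Symbols came from a RefSeq table of assembly GRCr8 through unversioned accessions: 28193 probes had 1 symbol, 33344 none and 0 several. The test was limma 3.58.1 under R 4.3.3 (lmFit, eBayes, two-sided, Benjamini-Hochberg over 40643 probes, threshold 0.05). The number of arrays limits the precision. The test was checked on simulated data.

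The members and lists were chosen with earlier results of these data known. Values in every array are given for members with an unadjusted p under 0.05 or groups apart, for ketone members and for 6 fixed genes; other pathway genes are named by the lowest p, up to 3 a list, with Ppara always. Slide, normalization, background correction, filters, variance model, source of values and each array left out were tried as alternatives, slide 1 alone after seeing the data. For normexp the median spot signal stood in for the mean. A planned comparison of protein sequences was not done. A further gene of the pathway lists is not reported here.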

Additional observations from a re-analysis of the deposited data

How the results depend on the processing

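Over 26 members named with all their values and 18 alternatives, 448 of 468 differences kept their direction and their side of the adjusted threshold. Of the others, 11 crossed to an adjusted p under 0.05 and 9 changed sign. No member passed the adjusted threshold as reported, so keeping its side says little about stability. By unadjusted p, 40 differences no longer had a p under 0.05 and 12 newly had one. Only the 15 genes with a p under 0.05 as reported could lose it, so all 40 are theirs. The sign changes were in Cpt1a (-0.39 with slide as a fixed block, -0.12 as a random block, -0.12 without vehicle 2, -0.01 without treated 2, -0.05 without treated 3), Oxct1 (0.022 with slide as a fixed block), Hadha (-0.0099 with normexp) and, leaving out arrays, Oxct1 (-0.0615 to 0.00268, above 0 without vehicle 1) and Ehhadh (-0.325 to 0.0592, above 0 without treated 3), and the cause was not tested. The 1 higher and 2 lower probe calls became 96 and 40 with normexp, 109 and 47 with a trended robust variance, 0 and 1 with no filter or with slide as a fixed block, and 0 and 0 with probes above background on all 6 arrays or with a floor on dim values; the mean over probes gave 4 lower. Leaving out arrays gave 0 to 1469 higher and 0 to 2838 lower, the highest without treated 1. Members called were 1 with normexp and with the trended robust variance, and 0 to 10 leaving out arrays. Members higher by unadjusted p were 6, with 1 lower, with slide as a fixed block, and 10 to 22 leaving out arrays. Members apart in the lower direction, 1 as reported, were 3 with quantile normalization, 0 with median centring, the series table or the mean over probes, 6 on slide 1 only, and 1 to 3 leaving out arrays. Slide as a fixed block gave medians of 0.10 for mitochondrial, 0.081 for peroxisomal and 0.33 for ketone members, and leaving out arrays gave a mitochondrial median of 0.151 to 0.258. The labels number the replicates alike in both groups, and deviations of same-numbered arrays from their group means correlated at -0.21, 0.01 and -0.16. These values show no pairing by number. They cannot exclude it, since each group has 3 arrays and the treated deviations also hold the slide difference. The replicate block left 0 higher and 0 lower probe calls, and 13 members were higher by unadjusted p.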
